A study of Danio rerio with 2 samples.

Results

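The 461 regions described here are the more deeply covered stretches of open chromatin that held at least 2-fold fewer normalised reads in an npas4l mutant zebrafish embryo than in a wild type embryo. They were chosen by their values in the same libraries. A region entered when it lay on a nuclear chromosome, had a mean of both libraries of at least 50, a log2 ratio of mutant + 1 over wild type + 1 of −1 or lower, and a value of at least 4 in each library. The table held 35854 regions, of which 26763 were nuclear with a mean of at least 50, and the 461 made up 1.72% of those 26763. Because the rule used the ratio, the ratios below are a description, and the share of 1.72% says nothing further about the members.

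The mutant library came from an embryo with 2 copies of the bns297 allele of npas4l (npas4l bns297/bns297), and the wild type library from an embryo of the AB strain. Both were single whole embryos at the 1-somite stage, freed of chorion and yolk, and a small aliquot of each sample served for genotyping. The growth protocol names AB embryos for both libraries and gives no separate background for the mutant line. The assay, ATAC-seq, exposes nuclei to the Tn5 transposase, which cuts accessible DNA and tags the ends with sequencing adapters. With 1 library for each genotype, nothing was tested between them and no value has a replicate error.

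Npas4l is a transcription factor of the bHLH-PAS family, a group whose members pair with a partner protein to bind DNA. It is the gene affected in the cloche mutant, whose embryos lack most endothelial and blood cells, and it acts upstream of etv2 and tal1 in the lateral plate mesoderm. Open regions near a transcription start site (TSS) are mostly promoters, which tend to be accessible in many cell types. Open regions far from any TSS include enhancers, which are often accessible in only some cell types. In a whole embryo, fewer cells of a type and less accessible chromatin per cell cannot be told apart. Any other difference between these single embryos or their libraries cannot be told apart from genotype either.

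Reads recovered from the values came over all regions to 7066666 for the mutant and 7853828 for the wild type, and the median log2 ratio of the 26763 regions was 0.02. Values are normalised read counts as scaled by the authors. The interval in parentheses after a log2 ratio gives the exact 95% Clopper-Pearson bounds for how its reads divide between the libraries. Reads amplified by PCR and lacking molecular identifiers are not independent, so such intervals, and those of shares, cover counting error alone. All 461 intervals lay below 0, which the rule fixed in advance. The gene npas4l was not analysed here, so each genotype rests on the label. Distances run from the centre of a region to the nearest TSS among the 14589 genes of the table. These are only the genes to which the authors assigned a region, so other genes were not seen. A distance is therefore an upper bound, and a region outside these gene bodies may lie inside another gene. A nearest gene is a neighbour on the chromosome, not a known target.

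Most of the 461 regions lay close to the 2-fold limit. Their median log2 ratio was −1.17, with a lower quartile of −1.42 and a lowest value of −5.35. The mutant values ran from 4 to 4624 with a median of 40, and the wild type values from 67 to 9302 with a median of 102. Of the 461 regions, 382 (82.9%) were less than 3-fold lower, 79 were at least 3-fold lower, 50 at least 4-fold, 24 at least 8-fold and 15 at least 16-fold lower. The regions were also thinly covered, with a median mean of 72 against 134 over all 26763 regions, and only 112 had a mean of 100 or more.

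**Figure D1:**
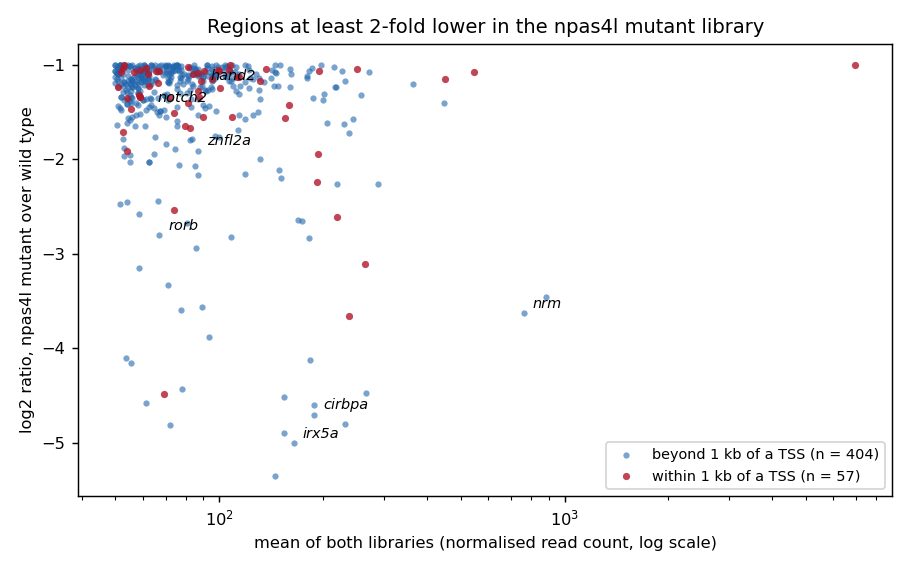
Mean of both libraries (normalised read count, log axis) against the log2 ratio, mutant over wild type, of each of the 461 lower regions, with red points within 1 kb of a TSS and blue points beyond. Most points crowd between −1 and −2 at means under 100, and a sparse set of 50 regions reaches 4-fold or more, down to −5.35.

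At the limit itself, the 5 regions just inside stood at a log2 ratio of −1. They lay nearest to fstl1b, mtss1, matk, si:dkey-106n21.1 and lhx1a. The fstl1b region held 79 normalised reads in the mutant against 159 in the wild type, and the lhx1a region held 61 in the mutant against 123 in the wild type. The 5 regions just outside had a log2 ratio of −0.99 and lay nearest to si:busm1-163l24.4, hoxc6b, arap3, hhip and pls3. The hoxc6b region, with 68 in the mutant against 136 in the wild type, missed the limit only through the pseudocount of 1. The intervals of regions on either side of the limit overlapped almost entirely, as with −1.42 to −0.61 for fstl1b inside and −1.45 to −0.56 for hoxc6b outside. Another 11 regions met the ratio and the mean but had a value under 4 in a library and were not members.

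The lower regions lay mostly away from promoters. Only 57 of 461 (12.4%, exact binomial interval 9.50 to 15.7%) were centred within 1 kb of a TSS, against 163 of the 560 regions that were at least 2-fold higher in the mutant by the mirrored rule (29.1%) and 11357 of all 26763 (42.4%). At 10 to 50 kb from a TSS stood 182 lower regions (39.5%), against 23.4% of the higher regions and 22.8% of all. The median distance to the nearest TSS was 21.6 kb for the lower regions, 8.87 kb for the higher regions and 3.14 kb for all. A further 104 lower regions (22.6%) lay at 1 to 10 kb and 118 (25.6%) beyond 50 kb, of which 53 lay beyond 100 kb. None of these shares was tested.

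Away from promoters, the lower regions were divided between the gene bodies of the table and the space outside them. Centred inside a gene body of the table and beyond 1 kb of any TSS were 192 lower regions (41.6%), against 19.6% of the higher regions and 24.6% of all. Outside the gene bodies of the table and beyond 1 kb were 212 lower regions (46.0%), against 51.3% of the higher regions and 33.0% of all. The authors' table assigned a gene to 123 lower regions (26.7%), against 45.0% of the higher regions and 55.1% of all. The median log2 ratio was −1.20 for the 57 regions within 1 kb of a TSS, close to the −1.17 of the 404 regions farther away.

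Promoter regions had higher values than distal ones, and low values scatter more, so the shares were also read within bands of the mean. Over all levels, 0.502% of regions within 1 kb of a TSS and 2.62% of regions beyond 1 kb were lower members. In the band with means of 50 to 75, these shares were 1.60% within 1 kb and 5.28% beyond. In the band of 100 to 150 they were 0.433% within and 1.65% beyond, and in the band of 200 to 400 they were 0.141% within and 0.748% beyond. The share was larger beyond 1 kb in all 6 bands, but the upper bands held few lower regions. At 200 to 400 there were 4 within 1 kb and 18 beyond. At 400 and above there were 3 of 2601 within and 3 of 1225 beyond. Among the higher regions, the shares within and beyond 1 kb lay closer together at low means, at 4.04% and 3.92% for 50 to 75 and at 1.84% and 2.10% for 100 to 150, and apart at means of 400 and above, at 0.384% and 2.04%. The whole distribution was shifted between the classes too, with a median log2 ratio of 0.11 within 1 kb and −0.07 beyond. Whether this shift arose from the genotype or from the libraries cannot be told apart with 1 library each.

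**Figure D2:**
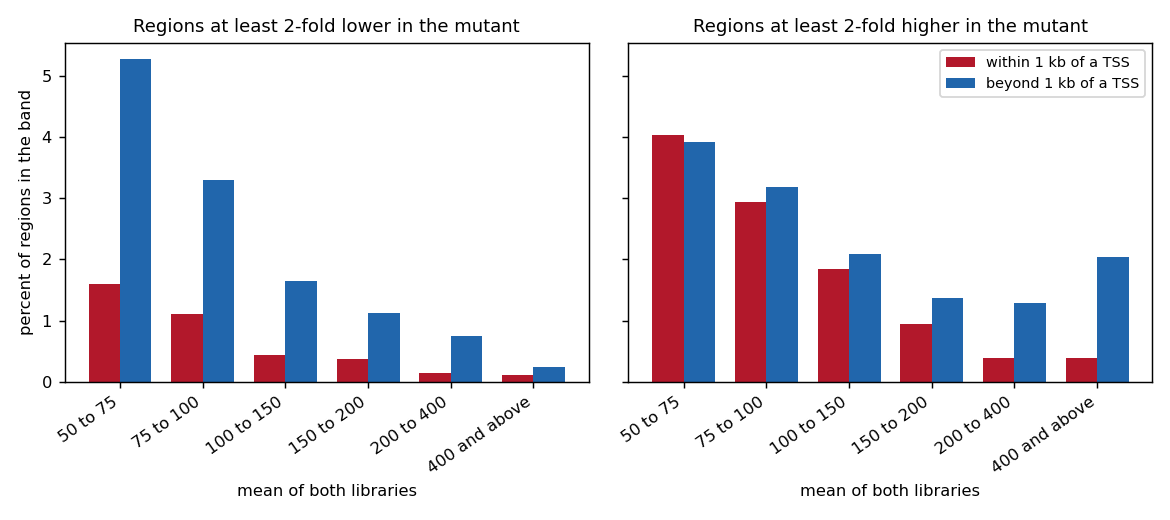
Percent of regions in each band of the mean of both libraries that were at least 2-fold lower (left) or at least 2-fold higher (right) in the mutant, with red bars within 1 kb of a TSS and blue bars beyond. On the left the blue bar exceeds the red bar in every band (5.28% against 1.60% at 50 to 75), and both shrink as the mean increases.

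The lower regions were narrow, with a median width of 381 bp and a range of 180 to 2448 bp, against a median of 526 bp for the higher regions and 466 bp for all. Width tracked the mean, however. Among regions with a mean of 50 to 75, the median width was 334.5 bp for lower regions and 321 bp for all regions in that band, and at 100 to 150 it was 423.5 bp for lower regions and 445 bp for all. At 200 to 400 it was 636 bp for lower regions and 587 bp for all.

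The 15 regions with the lowest ratios next to a gene with a symbol other than a clone name were taken as a group. All but the pair at nrm held 22 normalised reads or fewer in the mutant library. The lowest of these 15 was on chromosome 7 at 35464684 to 35465273, outside the gene bodies of the table. It lay 26.2 kb upstream of irx5a (ENSDARG00000034043), an Iroquois homeobox transcription factor of patterning. It held 9 normalised reads in the mutant against 320 in the wild type, a log2 ratio of −5.00 (−6.46 to −4.24). The other 15 regions nearest to irx5a did not follow it. Their log2 ratios ran from −0.86 to 0.45 with a median of −0.05, and the region at the irx5a TSS held 564 in the mutant against 584 in the wild type.

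On chromosome 3 at 15413706 to 15414766, a region 58.8 kb downstream of the TSS of nupr1, a small stress-induced chromatin protein, held 15 in the mutant against 447 in the wild type (−4.81, −5.79 to −4.14). On chromosome 2, a region 2.78 kb upstream of cirbpa, a cold-inducible RNA-binding protein, held 13 in the mutant against 364 in the wild type (−4.70, −5.80 to −4.01). A region 71.4 kb upstream of ctsa, the lysosomal carboxypeptidase cathepsin A, held 22 in the mutant against 510 in the wild type (−4.47, −5.21 to −3.88). All 4 other regions nearest to cirbpa had ratios above 0, from 0.12 to 0.79, so the low value was that of a single region.

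Single low regions were found next to other genes of this group. A region 1.41 kb upstream of PKIG, an inhibitor of protein kinase A, held 4 in the mutant against 119 in the wild type. A region 2.89 kb upstream of lamtor1, part of the lysosomal complex that anchors mTORC1, held 19 in the mutant against 347 in the wild type (−4.12, −4.95 to −3.50). A region 27.7 kb downstream of the TSS of rasa2, a GTPase-activating protein for Ras, lay inside a gene body and held 6 in the mutant against 150 in the wild type. The only other region nearest to lamtor1 was at −0.32, and the 2 others nearest to rasa2 ran from −0.77 to −0.17.

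The rest of this group had neighbours of varied function. They were fam171a2a with 12 in the mutant against 296 in the wild type, alkbh6, a dioxygenase of the AlkB family, with 5 in the mutant against 106 in the wild type, and kcnc2, a voltage-gated potassium channel, with 11 in the mutant against 176 in the wild type. LRRC4B, a synaptic adhesion protein, had 11 in the mutant against 144 in the wild type, and thrap3b, a protein of RNA processing, had 13 in the mutant against 165 in the wild type. Only the region of cyp2x7, a cytochrome P450, lay within 1 kb of a TSS, 0.618 kb upstream, with 5 in the mutant against 133 in the wild type (−4.48, −6.29 to −3.39).

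A pair of regions on chromosome 19 stood out by level. Both lay nearest to nrm (ENSDARG00000063690), which encodes nurim, a protein of the inner nuclear membrane, at 45.2 and 49.5 kb downstream of its TSS. The region at 861086 to 862149 held 113 in the mutant against 1410 in the wild type (−3.63, −3.94 to −3.36). The region at 864672 to 867120 was the widest of the 461 and held 147 in the mutant against 1625 in the wild type (−3.46, −3.73 to −3.22). The region at the nrm TSS, 1.02 kb away, held 607 in the mutant against 659 in the wild type, and a region 43.2 kb away held 48 in the mutant against 54 in the wild type.

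**Figure D3:**
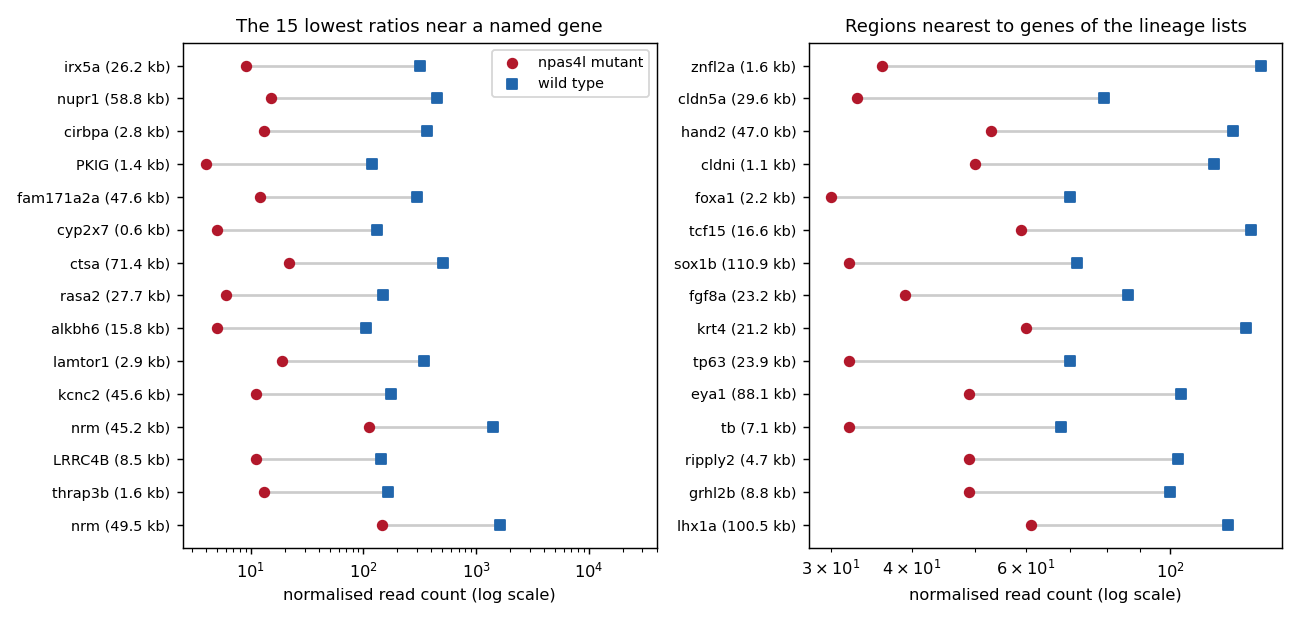
Normalised read count (log axis) in the npas4l mutant (red circles) and wild type library (blue squares). Shown are the 15 lowest ratios near a gene with a symbol other than a clone name (left) and the 15 members nearest to a gene of a lineage list (right). Each is labelled with the gene and the distance to its TSS. On the left the mutant values reach down to 4 while wild type values reach 1625, and on the right mutant values of 30 to 61 stand beside wild type values of 68 to 138.

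The 50 regions that were at least 4-fold lower formed the low tail of the set. Their median was 20.5 in the mutant against 183 in the wild type, with mutant values of 4 to 147 and wild type values of 88 to 1625. Of the 50, 6 lay within 1 kb of a TSS (12%, against 12.4% of all members). Centred inside a gene body were 14 of the 50, against 227 of the 461 members (49.2%) and 55.3% of all regions. On chromosome 3 lay 9 of the 50, against 43 of the 461 members and 1433 of all 26763 regions. Within 50 kb of them, 81 of 160 neighbouring regions (50.6%) had a ratio below 0. A single region, nearest to ENSDARG00000070285 on chromosome 25, supplied 27 of these 160 neighbours and 24 of the 81 below 0. Around the 411 regions under 4-fold, 959 of 1468 neighbours (65.3%) were below 0, against 54.2% for the neighbours of all 26763 regions and 57.1% for those of regions beyond 1 kb of a TSS. A region at least 2-fold higher in the mutant lay within 50 kb of 6 of the 50 (12%) and of 20 of the 411 (4.87%). By the mirrored rule, which also asks for a value of at least 4 in each library, the share was 5.21% of all members. By the same rule it was 4.78% of all 26763 regions, close to the 5.21%. The shares of the 50 and the 411 were counted without that minimum value, and counted so the share was 5.64% of all members. None of the 50 was nearest to a gene of the lists described below. Such genes were nearest to only 694 of all 26763 regions, so their absence from 50 regions shows little. Neighbours were measured in the same libraries, so these shares are descriptions. They also count other members as neighbours, which the rule placed below 0. A member lay within 50 kb of 12.4% of members and of 5.51% of all regions, so part of the difference comes from the selection.

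At slc6a16a, a member of the solute carrier family of neurotransmitter transporters, both directions occurred within a few kb. The region 3.76 kb upstream of its TSS held 12 in the mutant against 130 in the wild type. The region 1.58 kb upstream held 942 in the mutant and was listed at 0 in the wild type library. A similar pair stood at cldni, an epidermal claudin of tight junctions. Its region 1.12 kb downstream of the TSS held 50 in the mutant against 117 in the wild type, and its region 3.90 kb downstream held 283 in the mutant against 23 in the wild type.

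The 12 highest means next to a gene with a symbol other than a clone name included the regions at nrm, ctsa and nupr1 above. Apart from these and the vapal region below, the 12 were less than 4-fold lower. Over all members, however, the median mean was 100.75 for the 50 regions at least 4-fold lower and 71 for the other 411. High levels with low ratios were also found next to clone-named or unnamed genes. At zgc:101800, 0.195 kb upstream of the TSS, the values were 34 in the mutant against 441 in the wild type (−3.66). At ENSDARG00000070285, 0.006 kb from its TSS, they were 54 in the mutant against 475 in the wild type (−3.11). The region with the highest mean lay on chromosome 5 at 825858 to 826813, 0.665 kb from the TSS of the clone-named gene zgc:158463, and held 4624 in the mutant against 9302 in the wild type (−1.01, −1.06 to −0.96). The region inside mchr1b, a melanin-concentrating hormone receptor, 0.594 kb from its TSS, held 279 in the mutant against 621 in the wild type. A region 32.0 kb downstream of the TSS of tmem259, a membrane protein, held 219 in the mutant against 507 in the wild type (−1.21, −1.45 to −0.97). With more reads behind them, these ratios had narrower intervals than those of the thin regions.

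For others of this level, the nearest genes were of membranes, matrix and chromatin. The vapal region, next to a VAMP-associated protein gene and 37.4 kb upstream of its TSS, held 99 in the mutant against 479 in the wild type (−2.26, −2.61 to −1.95). The region nearest to mmp15a, a membrane-bound matrix metalloproteinase 33.9 kb away, held 112 in the mutant against 349 in the wild type (−1.63, −1.97 to −1.33). The region nearest to adamts9, a secreted metalloproteinase 138 kb away, held 142 in the mutant against 321 in the wild type (−1.17, −1.48 to −0.89). The region 56.2 kb from the samd11 TSS held 122 in the mutant against 365 in the wild type. The region nearest to atad2b, a bromodomain ATPase, lay 253 kb from its TSS. It held 110 in the mutant against 365 in the wild type. The region 1.63 kb from the TSS of c5, a complement component, held 174 in the mutant against 370 in the wild type.

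Of the 694 regions whose nearest gene stood in a list of lineage or broadly expressed genes, 15 were lower members (2.16%) and 8 were at least 2-fold higher (1.15%), against 1.72% lower and 2.09% higher over all regions. All 15 lay beyond 1 kb of the TSS, at 1.12 to 111 kb with a median of 21.2 kb, and 10 of the 13 lists had at least 1 of them. Of the 694 regions, 537 lay beyond 1 kb, so 15 of 537 is the count to set beside the 2.62% of all regions beyond 1 kb. The endothelial list had 1 lower region of 66 (1.52%), and the blood list 1 of 42 (2.38%). The cardiac and lateral plate list had 1 of 53 and the pronephric list 1 of 41. The lists of the hatching gland (7 regions), the yolk syncytial layer (1 region) and broadly expressed genes (24 regions) had none.

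The endothelial member lay on chromosome 8 at 4670995 to 4671211, 29.6 kb downstream of the TSS of cldn5a, a claudin of tight junctions in endothelium and brain. It held 33 in the mutant against 79 in the wild type (−1.23, −1.90 to −0.65). The other 2 regions nearest to cldn5a were less apart, with 506 in the mutant against 652 in the wild type at 15.4 kb, and 1099 in the mutant against 1130 in the wild type at 0.347 kb.

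The blood member lay on chromosome 2 at 134525 to 134822, 1.56 kb upstream of znfl2a, a zinc finger gene with a close paralog in zebrafish. It held 36 in the mutant against 138 in the wild type (−1.91, −2.51 to −1.38), the lowest ratio among the 15. The region at the znfl2a TSS held 378 in the mutant against 541 in the wild type (−0.52). The sources used here do not say how reads that map to more than one place were treated, so values at genes with near-identical copies are uncertain.

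The cardiac member lay on chromosome 1 at 37522588 to 37522990, 47.0 kb upstream of hand2, a bHLH factor required for heart and fin precursors. It held 53 in the mutant against 125 in the wild type (−1.22, −1.73 to −0.75). The 4 other regions nearest to hand2 ran from −0.56 to 0.13, with 124 in the mutant against 160 in the wild type at 0.615 kb from the TSS. The pronephric member was the lhx1a region at the limit, 100.5 kb upstream of this LIM homeobox gene of kidney precursors, with the 8 other lhx1a regions from −0.57 to 0.49.

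The paraxial mesoderm and somite list had 3 lower regions of 85 (3.53%), and 68 of its 85 regions lay below 0. Its median log2 ratio was −0.37, against 0.02 over all regions and −0.07 over all regions beyond 1 kb of a TSS. Of the 85 regions, 65 lay beyond 1 kb. The member 16.6 kb downstream of the TSS of tcf15, a bHLH factor of somites, held 59 in the mutant against 133 in the wild type. That 23.2 kb upstream of fgf8a, a growth factor of the tailbud and brain, held 39 in the mutant against 86 in the wild type. That 4.69 kb downstream of the TSS of ripply2, a repressor that helps set somite boundaries, held 49 in the mutant against 103 in the wild type. All 6 other fgf8a regions lay between −0.45 and −0.06.

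The epidermis list had 4 lower regions of 25 (16%), and 2 higher ones. Besides cldni, they were nearest to krt4, a keratin of the outer layer, with 60 in the mutant against 131 in the wild type, to tp63, the master factor of basal epidermis, with 32 in the mutant against 70 in the wild type, and to grhl2b, a Grainyhead factor of epithelia, with 49 in the mutant against 100 in the wild type. Their log2 ratios lay between −1.21 and −1.01. The krt4 region at the TSS was at −0.49 and a tp63 region 50.4 kb away at −0.27, while the other 3 grhl2b regions ran from −0.33 to 0.

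The remaining list members were single regions with nearest genes of the notochord, brain, placodes and endoderm. That 7.10 kb from the TSS of tb, a T-box gene of the notochord, held 32 in the mutant against 68 in the wild type. That 111 kb from the TSS of sox1b, a SoxB1 factor of neural tissue, held 32 in the mutant against 72 in the wild type. That 88.1 kb from the TSS of eya1, a placode gene, held 49 in the mutant against 104 in the wild type. That 2.21 kb from the TSS of foxa1, an endoderm forkhead factor, held 30 in the mutant against 70 in the wild type. Of the 13 other eya1 regions, 12 lay below 0, down to −0.86. Of the 6 other foxa1 regions, 2 did. Over the genes of all 15 list members, 48 of 60 other regions had a ratio below 0, 12 of these 48 at eya1. Below 0 were also 422 of the 694 regions of all lists and 56.3% of all regions beyond 1 kb of a TSS.

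Regions were also grouped by families of the nearest gene, each matched by patterns in the gene symbol, so genes of a family whose symbols fall outside the patterns are not counted. The shares stand beside the 1.72% of all regions and the 2.62% of regions beyond 1 kb of a TSS. Families differed in how many regions lay beyond 1 kb, as with 119 of 157 for Wnt and 49 of 96 for Hox. A share above 1.72% can therefore come in part from distance, which was not tested. Beyond 1 kb, members were 3 of 54 regions for Notch, 5 of 110 for nuclear receptors and 2 of 50 for retinoic acid genes. They were 6 of 165 for FGF, 3 of 119 for Wnt and 1 of 49 for Hox. Among retinoic acid genes matched this way there were 3 of 65 regions (4.62%). Vitamin A-derived retinoic acid acts through receptors that bind DNA as pairs of RAR and RXR proteins. Members were 23.9 kb upstream of rxraa, with 29 in the mutant against 101 in the wild type (−1.77, −2.48 to −1.20), 74.9 kb downstream of the same TSS, with 65 in the mutant against 144 in the wild type, and 0.130 kb from the TSS of raraa, with 33 in the mutant against 84 in the wild type. All 5 other rxraa regions lay below 0, from −0.77 to −0.15. At raraa a region 45.4 kb upstream went the other way, with 127 in the mutant against 59 in the wild type.

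Nuclear receptor genes with symbols of the nr, rar, rxr and esr kinds had 6 members of 154 regions (3.90%), which include those 3 and leave out rorb. The others were 2 at nr2f2, the orphan receptor COUP-TFII known for venous and lymphatic identity, and 1 at esrrga, an estrogen-related receptor. The nr2f2 regions lay on chromosome 18 inside a gene body, 8.35 and 20.3 kb downstream of the TSS. The nearer held 93 in the mutant against 197 in the wild type (−1.07, −1.47 to −0.72), and the farther held 32 in the mutant against 69 in the wild type (−1.08, −1.77 to −0.47). Of 12 other regions nearest to nr2f2, 10 lay below 0, with a median of −0.34 and none as low as −1.

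All 3 members of the Notch family list (4.48% of 67 regions) belonged to notch2 (ENSDARG00000043130), a receptor of signalling between touching cells. They formed the only group of 3 members linked by gaps of at most 50 kb. Of the 67 regions, 51 lay below 0, with a median log2 ratio of −0.17. On chromosome 8, the region at 19497597 to 19497982, 19.1 kb upstream of the TSS, held 33 in the mutant against 92 in the wild type (−1.45, −2.11 to −0.88). The region at 19521296 to 19521596, 4.55 kb downstream, held 34 in the mutant against 78 in the wild type (−1.17, −1.83 to −0.59). The region at 19550085 to 19550647, 33.5 kb downstream, held 56 in the mutant against 124 in the wild type (−1.13, −1.62 to −0.66). Both regions at the notch2 TSS were nearly even. The region 0.048 kb from it held 141 in the mutant against 156 in the wild type, and the region 0.898 kb upstream held 58 in the mutant against 64 in the wild type.

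**Figure D4:**
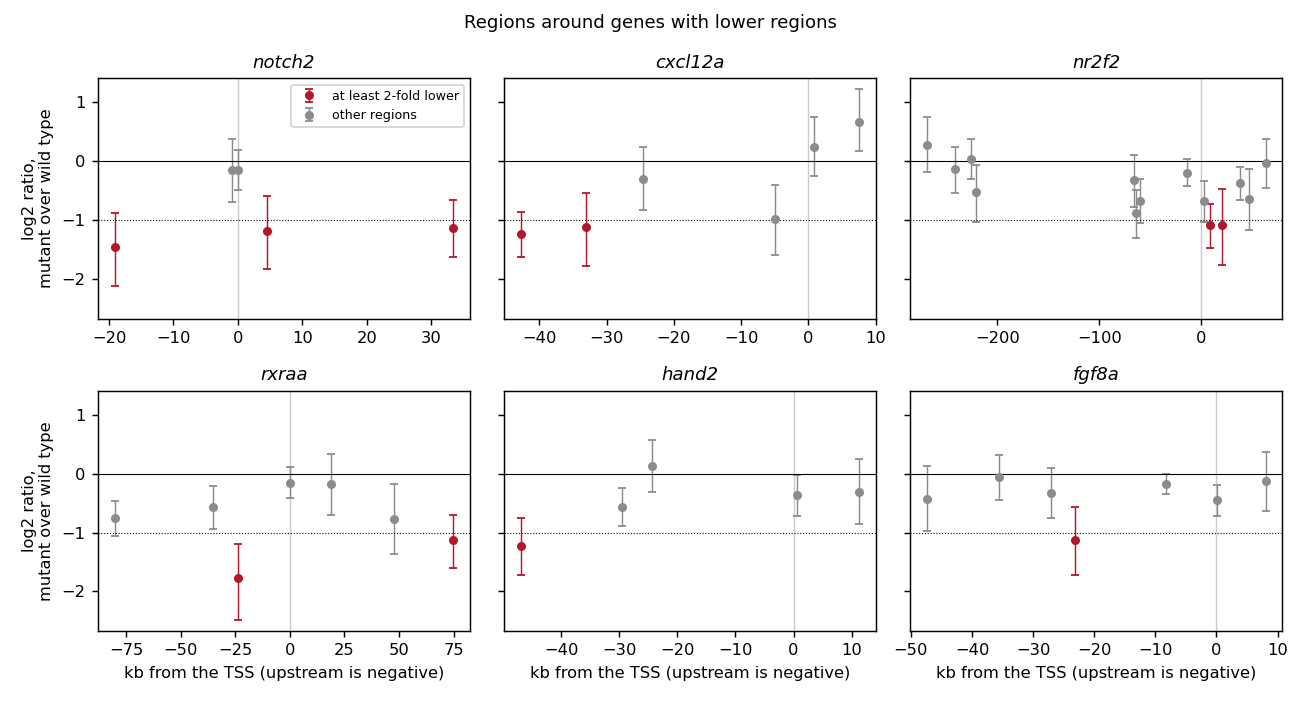
Log2 ratio of mutant over wild type against distance from the TSS in kb (upstream is negative) for every tested region nearest to notch2, cxcl12a, nr2f2, rxraa, hand2 and fgf8a, with exact 95% intervals of counting error, red points for the lower regions and grey points for the others. Regions at the TSS sit between −0.45 and 0.24, or at −0.67 for the nearest nr2f2 region at 2.99 kb, while the red points lie at −1.07 or lower.

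FGF genes had 7 members of 218 regions (3.21%). Besides fgf8a they were nearest to fgf19, a ligand, with 33 in the mutant against 71 in the wild type at 0.062 kb from its TSS, to the receptors fgfr4, with 62 in the mutant against 129 in the wild type, and fgfr1b, with 46 in the mutant against 94 in the wild type, and to intracellular inhibitors of the pathway. The inhibitors were spred2b, with 30 in the mutant against 72 in the wild type, and spry2, with a pair of regions. Of that pair, 1 lay 812 kb upstream of spry2, the largest distance of any member, and held 30 in the mutant against 110 in the wild type. The other lay 34.7 kb upstream and held 37 in the mutant against 77 in the wild type.

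Wnt genes had 3 of 157 regions (1.91%), near WNT5B, a ligand, fzd7a, a receptor, and lrp6, a co-receptor. The WNT5B region held 24 in the mutant against 77 in the wild type (−1.64, −2.39 to −0.97), and all 7 other WNT5B regions lay below 0, from −0.72 to −0.05. The fzd7a region held 44 in the mutant against 110 in the wild type, and the lrp6 region 33 in the mutant against 69 in the wild type. BMP, Nodal and TGF-beta genes had no member among 210 regions, Hedgehog genes none among 51 and T-box genes, counted without tb, none among 42.

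Hox genes, which set position along the body axis, had 4 members of 96 regions (4.17%), and 78 of the 96 lay below 0 with a median log2 ratio of −0.32. Of the 4 members, 3 lay within 1 kb of a TSS. They were at hoxa9a on chromosome 19, with 37 in the mutant against 88 in the wild type (−1.23, −1.85 to −0.67), at hoxd11a on chromosome 9, with 58 in the mutant against 123 in the wild type, and at hoxb4a on chromosome 3, with 125 in the mutant against 263 in the wild type (−1.07, −1.40 to −0.76). The other lay 3.74 kb from the TSS of HOXD3, with 44 in the mutant against 90 in the wild type, 21.9 kb from the hoxd11a region. The 5 tested regions between these ran from −0.81 to 0.63.

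Homeobox genes outside the Hox clusters that matched the patterns had 4 of 460 regions (0.870%), which besides irx5a and lhx1a were meis1a, a Hox cofactor, with 39 in the mutant against 99 in the wild type, and isl2b, with 64 in the mutant against 135 in the wild type. The patterns missed a member nearest to shox, the short stature homeobox gene, with 29 in the mutant against 79 in the wild type. The bHLH genes had 3 of 334 (0.898%), at hand2, tcf15 and twist3. Sox genes had 2 of 135, at sox1b and sox21b, and forkhead genes 2 of 142, at foxa1 and foxb1b. Zinc finger genes had 7 of 486 (1.44%), the lowest after znfl2a being znf395, with 37 in the mutant against 130 in the wild type.

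Adhesion and guidance molecules made up another share. Cadherin, claudin and junction genes had 6 of 157 (3.82%), at cdh18b, cldn5a, cldni, pkp2, pcdh1b and pcdh18b. The cdh18b region, 0.158 kb from its TSS, held 21 in the mutant against 127 in the wild type (−2.54, −3.33 to −1.89), and the others lay between −1.23 and −1.06. Collagen, laminin and integrin genes had 4 of 152 (2.63%), with itga11b, an integrin that binds collagen, at 48 in the mutant against 134 in the wild type. Eph and ephrin genes had 3 of 126 (2.38%), at efna2b, epha4l and epha4a, between −1.18 and −1.06. Semaphorin, plexin, slit, robo and netrin genes had 4 of 199 (2.01%). The region 117 kb from the TSS of plxna3, a semaphorin receptor, held 44 in the mutant against 151 in the wild type (−1.76, −2.32 to −1.29).

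Ion channel genes had 4 of 131 (3.05%) and solute carriers 4 of 341 (1.17%). Near single genes, the region of kcne4, a potassium channel subunit, held 100 in the mutant against 309 in the wild type (−1.62, −1.97 to −1.29). Of the 4 other kcne4 regions only 1 lay below 0, and they ran from −0.70 to 1.32. The region of usp16, a deubiquitinase, held 16 in the mutant against 101 in the wild type (−2.58, −3.55 to −1.88). The only other usp16 region was at 0.17. Ribosomal protein genes had 1 of 189 regions (0.529%), nearest to RPS15A and 50.6 kb from its TSS. The 2 other RPS15A regions went the other way, at 0.24 and 1.44.

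By type, the nearest gene was protein coding for 409 of 461 members (88.7%), against 93.2% of all regions. Genes for rRNA were nearest to 10 members of 242 such regions (4.13%), 9 of them annotated as 5S and 1 as 5.8S. They were spread over 8 chromosomes, none lay within 1 kb of the rRNA gene, and their values were 33 to 72 in the mutant, against 72 to 172 in the wild type. Processed transcripts were nearest to 16 members of 428 such regions (3.74%) and lincRNA genes to 10 of 479 (2.09%), against 1.72% of all regions. The symbol was a clone name for 89 members, and 23 had no symbol. The other members, with a symbol that was not a clone name, made up 75.7%, against 81.3% of all regions.

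The 461 regions were spread over every nuclear chromosome. Chromosome 3 had the largest share, 43 of 1433 regions (3.0%, exact binomial interval 2.18 to 4.02%), followed by chromosomes 24 (2.89%), 14 (2.72%), 23 (2.55%) and 15 (2.50%). Chromosome 17 had the smallest, 9 of 1054 (0.854%, 0.39 to 1.61%), after chromosomes 7 (1.15%) and 18 (1.16%). On chromosome 3, regions at least 2-fold higher were frequent as well, 61 of 1433 (4.26%). The share of higher regions on chromosome 22 was 5.14%, beside 1.94% for lower regions.

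**Figure D5:**
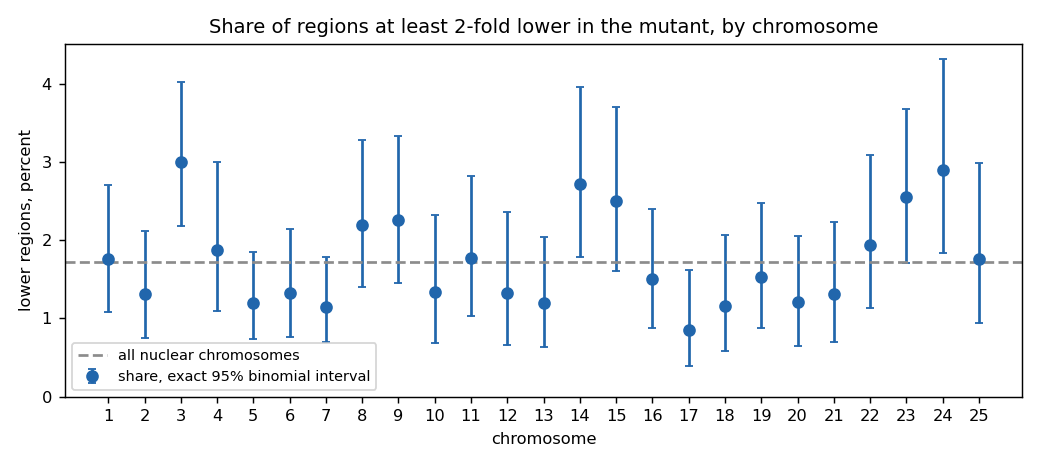
Percent of tested regions on each chromosome that were at least 2-fold lower in the mutant, with exact 95% binomial intervals of counting error and a dashed line at the 1.72% of all nuclear chromosomes. Whole intervals lie above the line for chromosomes 3 (3.0%), 14 (2.72%) and 24 (2.89%) and below it for chromosome 17 (0.854%), and the others take it in.

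In windows of 5 Mb, 192 of 282 held at least 1 member. The fullest was on chromosome 3 from 30 to 35 Mb, with 11 members of 156 regions (7.05%) and 4 higher regions. Next were 9 of 180 regions on chromosome 14 from 30 to 35 Mb, 8 of 140 on chromosome 3 from 15 to 20 Mb and 8 of 191 at the start of chromosome 22, where 16 regions were at least 2-fold higher. In 3 of the 15 fullest windows, on chromosomes 9, 23 and 24, no region was at least 2-fold higher.

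At closer range, 57 of 461 members (12.4%) had another member within 50 kb. The same was true of 5.51% of all 26763 regions and of 6.19% of those beyond 1 kb of a TSS. Within 20 kb the share was 9.11% of members and 2.50% of all regions, and within 100 kb it was 19.5% of members and 9.74% of all. The higher regions were also close to each other, 15.2% having another within 50 kb. Linked by this distance, the members formed 404 single regions, 27 pairs and the 1 group of 3 at notch2.

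Of the 27 pairs, 20 shared the nearest gene, and 20 had no other tested region between their members. The distance between centres was 2.25 to 48.6 kb with a median of 11.9 kb. At cxcl12a, a chemokine that guides migrating cells, both members lay upstream on chromosome 13. At 42.7 kb the values were 86 in the mutant against 203 in the wild type (−1.23, −1.62 to −0.86), and at 33.1 kb they were 34 in the mutant against 75 in the wild type (−1.12, −1.78 to −0.53). Another upstream region, at 4.98 kb, stood at −0.98, just short of the limit, while the TSS region was at 0.24 and another 7.60 kb downstream at 0.67.

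At rorb, an orphan nuclear receptor of neural tissue that the symbol patterns of the receptor family left out, both members lay upstream on chromosome 5, with 16 in the mutant against 118 in the wild type at 40.7 kb and 31 in the mutant against 80 in the wild type at 49.0 kb. A region 57.8 kb upstream went the other way, with 400 in the mutant against 157 in the wild type. At fam171a2a the second member held 21 in the mutant against 140 in the wild type, 24.5 kb from the first. The lowest ratio of all, 6 in the mutant against 284 in the wild type (−5.35, −6.93 to −4.33), also stood in a pair. It lay on chromosome 3 inside a gene body, nearest to the clone-named gene si:ch73-141c7.1. The other region of the pair held 33 in the mutant against 83 in the wild type.

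The pairs at kdm1a, a histone demethylase, znf827, sipa1l2, soga1, arhgef25a, rnf145a, plekhh1, nhsa, ndfip1l, si:ch73-383g2.1, si:dkey-13n23.3, LOC797750 and a gene without a symbol (ENSDARG00000104263) were of moderate size, with log2 ratios between −1.80 and −1. All 13 other regions nearest to ndfip1l, an adaptor of ubiquitin ligases, lay below 0, from −0.77 to −0.04. The pair at a U6 snRNA gene on chromosome 16, next to a small RNA with many copies in the genome, held 29 in the mutant against 82 in the wild type at 0.821 kb and 76 in the mutant against 169 in the wild type at 4.26 kb. LOC797750 had another member with 5 in the mutant against 102 in the wild type, 54.8 kb upstream and outside the pair.

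Across the 97 nearest genes of the 121 members picked out by the naming rule, 358 other tested regions shared those nearest genes. Of these, 232 (64.8%) had a ratio below 0, against 47.4% of all regions and 56.3% of regions beyond 1 kb of a TSS, and 8 were at least 2-fold higher in the mutant. The 340 members that this rule did not pick had log2 ratios from −4.90 to −1 with a median of −1.17. In all, the 461 members had 430 different nearest genes, 29 of which had 2 or more members and 2 of which, notch2 and LOC797750, had 3.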

How the data were processed

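One npas4l mutant and 1 wild type ATAC-seq library were grouped by their genotype labels. Tools named in the submitters' processing notes, with no role stated, are MACS2, STAR 2.5.3a, Picard 2.9.0, Trimmomatic 0.36, DESeq, DESeq2 1.14.1 and deepTools 2.5.4, with danRer10 and GRCz10 as builds. Not given in the sources used here are the merging of regions, the treatment of duplicates and any shift of read ends for the transposase. The deposited library columns hold scores, normalised read counts that the authors rounded to whole numbers, as the values show. The deposited log2 ratio has the mutant as numerator, per the file headers, and its values show a pseudocount of 1. It matched the recomputed ratio exactly. The deposited fraction (overlap of a region with the body of its gene, per the file headers) was not used for the classes, which came from the deposited gene positions. Positions are printed as deposited, on GRCz10, and may count starts from 0 or from 1, which the sources used here do not say.

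Up to 4000, 99.96% of mutant values equal a whole read number multiplied by 1.06505 and rounded (chance gives 93.9%), and the wild type factor was taken as the reciprocal, 0.939. Reads recovered this way, 7066666 and 7853828 in regions for the mutant and the wild type library, served only for the intervals. The interval of each region shows how far its depth limits it. Shares carry exact Clopper-Pearson intervals.

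Members were called by the rule given in the report, with no test. Regions were linked at 50 kb between centres. Gene lists and families were matched by the symbol of the nearest gene, and families by patterns that miss members with other symbols. The patterns for kinases and for the ubiquitin system missed several such genes, so their counts are not given. Members and lists were chosen with earlier results of these data known. The regions described singly were the 15 lowest ratios and 12 highest means with a symbol other than a clone name, members near a list gene, linked groups of 3 and pairs with a shared nearest gene, the 5 on either side of the limit, and up to 3 per family. Regions at fgf19, fgfr4, fgfr1b, HOXD3, esrrga, shox, pkp2, pcdh1b, pcdh18b, zgc:158463, the nearer spry2 region and the LOC797750 region outside its pair, the rRNA members and the regions of slc6a16a and cldni with higher values were added after their values were seen. The regions at zgc:101800 and ENSDARG00000070285 were also added after their values were seen. Promoter sequences and motifs were not used here. The procedure was run on simulated data with counting error only. That run checks the code and cannot show how far embryos or libraries of the same genotype would differ. Scripts ran in Python 3.11.15 with scipy 1.17.1, pandas 2.3.3, numpy 2.4.6 and matplotlib 3.10.9.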

Additional observations from a re-analysis of the deposited data

How the results depend on the processing

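The number of lower regions was 461 and lay between 374 and 535 under 7 alternatives, namely pseudocounts of 0 and 5, a minimum of 10 or none in each library, scaling to a median ratio of 0 or to equal totals, and removal of the median of the level decile. It moved further with the level and the fold. A minimum mean of 30 gave 969 regions, of which 9.18% lay within 1 kb of a TSS, with a median width of 312 bp and 19.6% with another within 50 kb. A minimum mean of 100 gave 112 regions, 17.9%, 467.5 bp and 3.57%. A 3-fold limit gave 79 regions, with a median width of 477 bp, above the 466 bp of all regions, and 5.06% with another within 50 kb. Windows of 20 and 100 kb gave 9.11% and 19.5%. The share within 1 kb of a TSS was below that of all tested regions in 13 of 13 alternatives, and the share with another member nearby was above it in 12 of 12. Equal totals shifted all log2 ratios by −0.06, and the median scaling lowered them by 0.02. No paired analysis was possible because there was 1 library per genotype. For the same reason no replicate could be left out. Counting error was widest for members with the fewest reads in the mutant library. The PKIG region, with 4 in the mutant, had an interval of −6.70 to −3.42. The tb region, with a mean of 50 and 32 in the mutant, had one of −1.75 to −0.45.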
